A study of Mus musculus with 7 samples.

Results

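The genes of sphingolipid and galactolipid metabolism were followed in oligodendrocyte lineage cells (OLCs) of the adult mouse cortex. The set was defined by a list of 41 gene symbols, and all 41 were found among the 27998 genes of the count table. The rule uses the symbols alone and no measured value. The list was sorted into 7 roles: de novo ceramide synthesis (12 genes), the ORMDL regulators (3), galactolipid synthesis (3), glucosylceramide and ganglioside synthesis (4), sphingomyelin synthesis and hydrolysis (6), ceramide breakdown and sphingosine phosphate (9), and galactolipid breakdown and transfer (4).

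Sphingolipids are built on ceramide, which is made at the endoplasmic reticulum from serine and a fatty acyl chain and then carries a head group. In myelin the dominant head group is galactose: galactosylceramide and its sulfated form, sulfatide, are hallmark lipids of the oligodendrocyte membrane, and their very long and often hydroxylated chains help to pack the myelin sheath. Inherited loss of the enzymes that break them down causes leukodystrophies, such as Krabbe disease and metachromatic leukodystrophy.

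The 3 conditions compared were each measured in 1 single-cell library. All animals carried Emx1-Cre, which acts in the dorsal, cortex-forming part of the forebrain, and a Sox10-driven reporter that is read as GFP until Cre switches it to tdTom, so that ventrally derived OLCs (vOLCs) are GFP+ and dorsally derived OLCs (dOLCs) are TdTom+. Control dOLCs were TdTom+ cells, and control vOLCs were GFP+ cells, of Emx1-Cre:Sox10-GFP-TdTom animals (Emx/Tom). Ectopic vOLCs were GFP+ cells of animals that carried Emx1-Cre:Sox10-GFP-tdTom together with Sox10-GFP-DTA (Emx/Tom/DTA), in which diphtheria toxin A, under Sox10 control and dependent on Cre, removes dOLCs, and vOLCs take their place. The animals were of both sexes on a C57BL/6-B6CBA background and aged P90 (11 to 14 weeks). The labels name 4 control and 2 ablated mice, whose cells cannot be told apart in the files. Sources differ on the tissue: the region field of the labels gives motor and cingulate cortex, the protocol gives both these areas and the neocortex, and the methods of the study give the neocortex and a dissection of the corpus callosum. With 1 library per condition there was no replicate and no test between conditions, and differences between animals, sorts and libraries cannot be told apart from those between conditions. The question put to these genes was whether their levels in ectopic vOLCs stood apart from those in both kinds of control cell, and how levels were laid out along the lineage from oligodendrocyte precursor cells (OPCs) to the mature oligodendrocytes of the MOL5/6 class.

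After the study's own filters 9291 of 10081 barcodes remained: 5804 cells labelled control dOLCs (23078181 unique molecular identifiers, UMIs), 925 control vOLCs (4846391 UMIs) and 2562 ectopic vOLCs (14293675 UMIs). Cell types were taken from the deposited annotation, which has 11 clusters. The median number of UMIs per cell was 3490, 5022 and 5319 in that order. The OPC cluster held 853, 121 and 330 cells and MOL5/6 held 3777, 561 and 1842. The cluster names were checked against markers: the 7 OPC markers together reached 9792 to 12084 UMIs per 1000000 UMIs of the summed cells (CPM) in OPCs and 64.7 to 145 in MOL5/6, and 11 markers of mature oligodendrocytes reached 70942 to 82159 in MOL5/6. In MOL5/6 the summed markers were 22.6 to 31.7 CPM for neurons (8 genes), 229 to 269 for astrocytes (7 genes), 29.9 to 35.6 for microglia (7 genes, Tmem119 and P2ry12 at 0 in every library) and 3.59 to 8.56 for vascular cells (6 genes). In OPCs they were 1181 to 1360, 1030 to 1120, 78.5 to 109 and 4.16 to 20.3, with Tmem119, Cx3cr1 and C1qa at 0 in every library and the neuronal Rbfox3 and Slc17a7 at 0 in both vOLC libraries. Of the kept barcodes, 24 were shared by the ectopic and control dOLC libraries, 6 by the ectopic and control vOLC libraries and 9 by the controls.

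The libraries filled MOL5/6 from different subclusters, which bears on every MOL5/6 value below. Control dOLCs lay mostly in MOL5/6b (1947 cells) and MOL5/6c (928), ectopic vOLCs in MOL5/6a (900) and MOL5/6d (837) with 42 cells in MOL5/6b, and control vOLCs in MOL5/6a (237) and MOL5/6b (236). UMIs of all cells of a type were summed within a library, and a level is given as CPM of those sums. A difference is given as the log2 ratio of 2 levels with its 95% interval, which was an exact conditional binomial interval and covers counting error only. A gene passed the filter in a comparison when its libraries summed to 50 UMIs or more and either library had it detected in 10% or more of its cells. A gene was counted as higher or lower between conditions at a ratio of 1.5 or more. Levels are not compared between genes.

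Of the 41 genes, 32 passed the filter in at least 1 comparison. The 9 that never did were Sptssb with 0 UMIs, Degs2 with 1, Sphk1 with 12, Cers1 with 13, Cers6 with 39, Sgms2 with 166, Acer2 with 278, Smpd4 with 346 and Ugcg with 434, over all kept cells. A count of 0 allows up to 3 UMIs.

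Along the lineage Fa2h and Ugt8a of galactolipid synthesis were higher in MOL5/6 than in OPCs, and the ganglioside genes were lower. Of 27 members past the filter for this comparison, 4 were higher in MOL5/6 than in OPCs by at least 2-fold in each of the 3 libraries, while 9.58% of all 5293 genes were, and 10 were lower, while 19.3% of all genes were. The 4 were Fa2h, Ugt8a, Cers2 and Cerk. The 10 were Cers4, Cers5, Ormdl1, Ormdl3, St3gal5, B4galnt1, Sgms1, Smpd2, Asah1 and Sgpl1. The clusters were drawn from these same cells and genes, so these values describe the clusters and are no test. The median over the 27 members was -0.57 on the log2 scale and that over all genes -0.32. The counts depend on the scale: with TMM factors, which set the libraries by the bulk of genes in place of total UMIs, the median of all genes moved to 0.49 and that of members to 0.24, 5 members were higher (Gltp joined), while 22.4% of all genes were, and 3 were lower (Cers4, St3gal5 and B4galnt1), while 9.48% of all genes were. On that scale the mean ratios of Sptlc1, Sptlc2, Kdsr, Gal3st1, Smpd1, Sgpp1, Galc and Psap turned from below to above 0, so their direction below holds for CPM only.

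**Figure D1:**
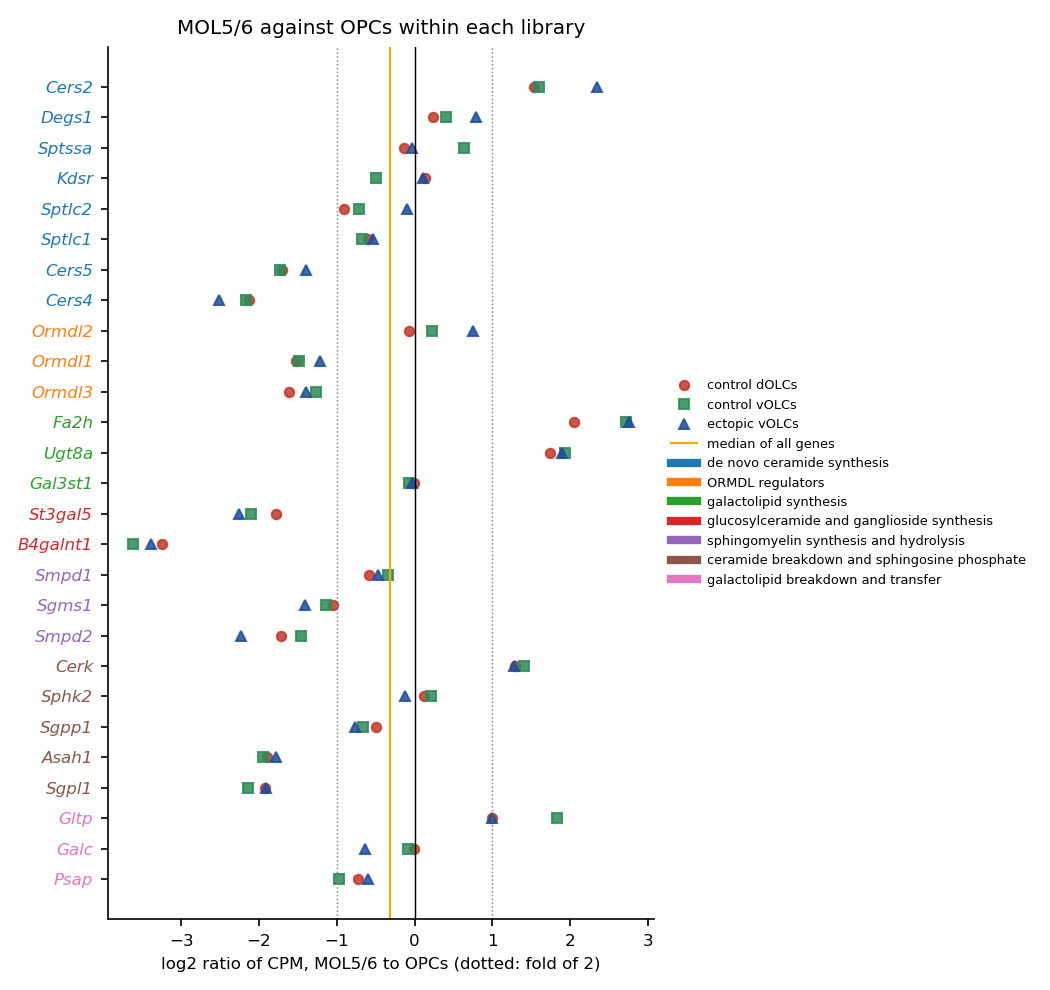
Log2 ratio of CPM in MOL5/6 to OPCs for the 27 members past the filter, 1 point per library, gene names coloured by role, dotted lines at a fold of 2 and the orange line at the median of all genes. Fa2h, Ugt8a, Cers2 and Cerk lie right of the upper dotted line in all 3 libraries, and B4galnt1 lies farthest left.

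Galactolipid synthesis has 3 members: Fa2h, the fatty acid 2-hydroxylase that supplies the hydroxylated chains, Ugt8a, the UDP-galactose:ceramide galactosyltransferase that makes galactosylceramide, and Gal3st1, the sulfotransferase that turns it into sulfatide. By the GENCODE M21 annotation (GRCm38), Ugt8a lies on chromosome 3 from 125865271 to 125938619 (minus strand), Fa2h on chromosome 8 from 111345135 to 111393824 (minus strand), and Gal3st1 on chromosome 11 from 3983636 to 3999326 (plus strand). Levels in the 3 libraries are given throughout in the order control dOLCs, control vOLCs, ectopic vOLCs. Fa2h was at 155, 101 and 93.99 CPM in OPCs and at 643, 669 and 634 CPM in MOL5/6. Its ratio of MOL5/6 to OPCs was 2.51 ± 0.39 (log2, SD, n = 3 libraries). Ugt8a was at 231, 215 and 146 CPM in OPCs and at 771, 823 and 543 CPM in MOL5/6, a ratio of 1.85 ± 0.10. Both were already high in the small cluster of committed and newly formed cells (COP/NFOL/MFOLa, 76, 13 and 22 cells), where Fa2h reached 618, 803 and 763 CPM and Ugt8a 927, 757 and 589 CPM. Gal3st1 did not share this pattern. It was at 124, 119 and 116 CPM in OPCs and at 124, 113 and 113 CPM in MOL5/6, a ratio of -0.037 ± 0.036.

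In MOL2, the other large mature class, all 3 were higher than in MOL5/6 in every library. Ugt8a was at 1012, 1148 and 762 CPM there, Fa2h at 811, 850 and 920 CPM, and Gal3st1 at 187, 169 and 164 CPM. Gltp, the glycolipid transfer protein that binds galactosylceramide and related lipids in the cytosol, was highest in MOL2 too. It was at 288, 170 and 317 CPM in OPCs, 949, 1022 and 1013 CPM in MOL2, and 574, 607 and 629 CPM in MOL5/6. The order over clusters was given by its mean over libraries, with MOL2 (994 ± 39.8 CPM, SD, n = 3) above MOL5/6 (603 ± 28.1) and COP/NFOL/MFOLa (613 ± 70.3), and the last 2 did not differ beyond their spread.

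**Figure D2:**
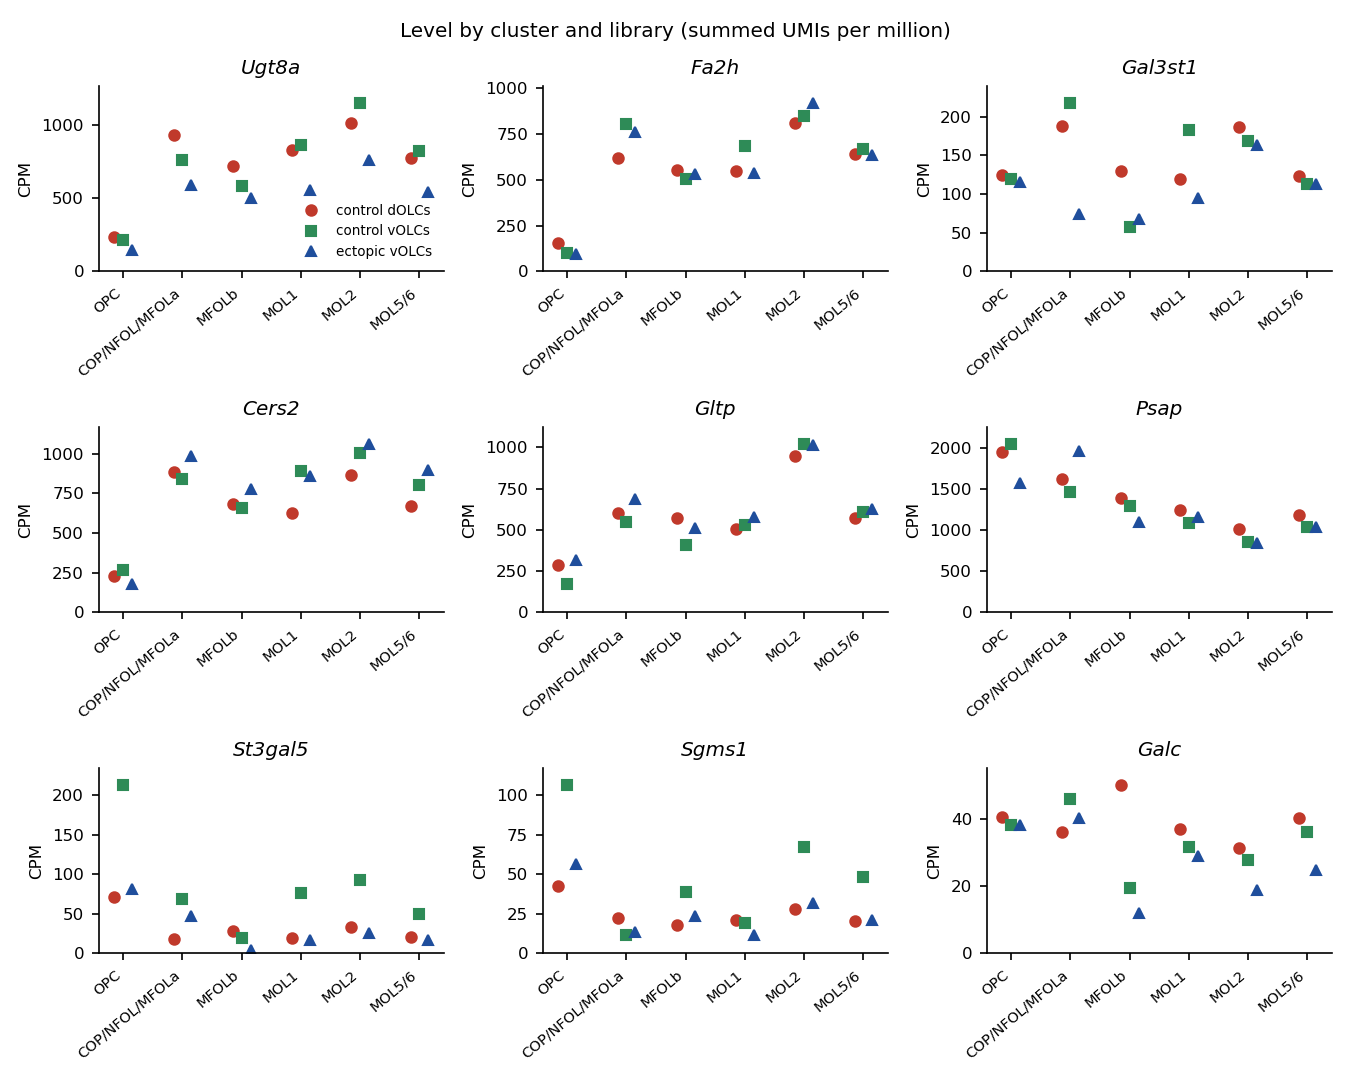
Level (CPM of summed UMIs, linear axis from 0) of 9 members in 6 cell classes, 1 point per library. Ugt8a, Fa2h, Cers2 and Gltp are lowest in OPCs, St3gal5 is highest there, and Gal3st1 has no such order.

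The ceramide synthases differed in direction. Cers2, the ceramide synthase for very long chains, was at 229, 266 and 176 CPM in OPCs and at 667, 804 and 898 CPM in MOL5/6, a ratio of 1.83 ± 0.45 (log2, SD, n = 3). Cers4 and Cers5, ceramide synthases with other chain preferences, went the other way. Cers4 was at 171, 177 and 178 CPM in OPCs and 39.1, 39.4 and 31.3 CPM in MOL5/6, and Cers5 at 139, 165 and 140 CPM in OPCs and 42.7, 49.7 and 53.3 CPM in MOL5/6. The clusters were drawn from these same cells, so the gaps between the classes are a description. Of all genes, 9.58% were higher and 19.3% lower in MOL5/6 by 2-fold in all 3 libraries. The enzymes before and after that step differed less. Sptssa, the small subunit of serine palmitoyltransferase, had a ratio of 0.16 ± 0.42, Kdsr, the reductase of the next step, -0.084 ± 0.36, and Degs1, the desaturase that finishes ceramide, 0.48 ± 0.29. The spread over libraries was larger than the mean for Sptssa and Kdsr. Among the ORMDL proteins, which restrain serine palmitoyltransferase, Ormdl1 (-1.41 ± 0.17) and Ormdl3 (-1.43 ± 0.18) were lower in MOL5/6, and Ormdl2 had a ratio of 0.30 ± 0.42.

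The ganglioside genes sat at the opposite end. B4galnt1, which adds the sugar that makes the ganglioside GM2, was at 57.1, 88.7 and 64.0 CPM in OPCs and at 6.00, 7.19 and 6.15 CPM in MOL5/6, with the lowest ratio of all members past the filter (-3.42 ± 0.19). St3gal5, the sialyltransferase that makes GM3 and so opens the ganglioside route, had a ratio of -2.04 ± 0.24. The lactosylceramide synthase B4galt6 stayed under the filter in MOL5/6 with 48, 11 and 15 UMIs, or 3.23, 3.77 and 1.42 CPM, against 55.6, 76.0 and 49.1 CPM in OPCs. Ugcg, the glucosylceramide synthase, was at 30.5, 27.9 and 25.0 CPM in OPCs and 9.502, 10.3 and 5.01 CPM in MOL5/6.

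Among ceramide breakdown genes, 2 of the 5 past the filter were lower in MOL5/6 by the stage fold and 1 was higher, beside the 19.3% and 9.58% of all genes given above. With TMM factors neither of the 2 kept the fold in ectopic vOLCs, at -0.86 for Asah1 and -0.99 for Sgpl1. Asah1, the acid ceramidase, was at 128, 195 and 166 CPM in OPCs and 34.3, 50.3 and 48.3 CPM in MOL5/6, and Sgpl1, the lyase that ends the pathway by splitting sphingosine phosphate, was at 98.3, 124 and 74.0 CPM and then 25.9, 28.1 and 19.8 CPM. Cerk, the ceramide kinase, was the higher one, at 27.0, 32.9 and 22.5 CPM in OPCs and 66.2, 87.7 and 54.5 CPM in MOL5/6. Smpd2, a neutral sphingomyelinase, had a ratio of -1.80 ± 0.39, and Smpd1, the acid sphingomyelinase, one of -0.46 ± 0.13. Smpd3, another neutral sphingomyelinase, was under the filter in MOL5/6, at 27.4, 32.9 and 28.3 CPM in OPCs and 6.67, 6.85 and 6.62 CPM in MOL5/6. Sgpp1, a phosphatase of sphingosine phosphate, had a ratio of -0.64 ± 0.13. Psap, the precursor of the saposins that present lipids to lysosomal enzymes, was at 1945, 2047 and 1569 CPM in OPCs and 1178, 1040 and 1041 CPM in MOL5/6. Galc, the lysosomal galactosylceramidase, had a ratio of -0.24 ± 0.34, and Arsa, the arylsulfatase that removes the sulfate of sulfatide, was under the filter, at 16.4, 10.1 and 15.8 CPM in OPCs and 21.8, 24.0 and 17.5 CPM in MOL5/6.

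Upstream sequence is shown for 3 members on which the comparisons between conditions turn: Ugt8a, which was below both controls, and St3gal5 and Sgms1, which stood high in control vOLCs. Each line gives the 250 bases before the first start that RefSeq lists (GRCm38.p6), 5′ to 3′ on the strand of the gene, with every GC box (GGGCGG on either strand) in capitals. They lie at chr3:125938653-125938902 (minus strand) for Ugt8a, chr6:72097358-72097607 (plus strand) for St3gal5 and chr19:32388513-32388762 (minus strand) for Sgms1. The last bases of the St3gal5 stretch fall in the first exon of its GENCODE model, and RefSeq lists 4 starts for Sgms1, whose stretch lies wholly inside the span of its GENCODE gene.
Ugt8a: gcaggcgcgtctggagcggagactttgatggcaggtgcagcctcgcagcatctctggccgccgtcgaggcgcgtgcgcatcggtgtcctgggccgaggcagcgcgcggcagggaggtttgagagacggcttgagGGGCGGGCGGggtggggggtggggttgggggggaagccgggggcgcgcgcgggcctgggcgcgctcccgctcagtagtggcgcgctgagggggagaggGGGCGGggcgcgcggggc
St3gal5: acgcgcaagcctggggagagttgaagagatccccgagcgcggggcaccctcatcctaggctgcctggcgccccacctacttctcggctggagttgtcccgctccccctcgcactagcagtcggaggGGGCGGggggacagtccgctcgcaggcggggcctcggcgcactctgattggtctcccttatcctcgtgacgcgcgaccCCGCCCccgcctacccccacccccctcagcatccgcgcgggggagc
Sgms1: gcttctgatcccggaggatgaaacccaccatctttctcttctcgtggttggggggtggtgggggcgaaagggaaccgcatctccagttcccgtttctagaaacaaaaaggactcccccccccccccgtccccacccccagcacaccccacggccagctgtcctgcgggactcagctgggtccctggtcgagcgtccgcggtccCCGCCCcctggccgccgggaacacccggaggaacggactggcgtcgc
The Ugt8a stretch held 3 matches, the first 2 of them overlapping, beside 32 CG pairs, that of St3gal5 held 2 matches and 25 CG pairs, and that of Sgms1 held 1 match and 19 CG pairs. A GC box was present upstream of 25 of the 36 members in the RefSeq table (69.4%) and of 8901 of all 27025 genes in it (32.9%), and the median number of CG pairs was 18 among members and 6 among all genes. The short letters ACAAAG and ACAATG, a core read by SOX factors, were searched on both strands as well. They were present upstream of 4 of 36 members (11.1%) and of 25.5% of all genes, and in none of the 3 stretches shown. The set of all genes was not limited to genes expressed in these cells, and it differs from the members in CG pairs. The part of base composition in these shares was not tested. A match of letters is a description of the stretch, not a binding site. Fa2h, B4galt6, B4galnt1, Smpd3 and Asah1 are not in the table.

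Between conditions in MOL5/6, few members were past the fold. Of 24 members past the filter for ectopic vOLCs against control dOLCs, 1 was lower by 1.5-fold (Galc), while 11.5% of all 5218 genes were, and 1 was higher (Ormdl1), while 1.13% of all genes were. The median log2 ratio was 0.058 over members and -0.029 over all genes, and the counting interval lay above 0 in 45.8% of members and 26.9% of all genes and below 0 in 37.5% and 36.1%. Against control vOLCs, 5 of 27 members were lower (Ugt8a, St3gal5, Sgms1, Asah2 and Cerk), while 12.4% of all 5496 genes were, and 0 were higher, while 1.46% of all genes were. The median was -0.075 over members and -0.019 over all genes, and the interval lay above 0 in 11.1% of members and 18.7% of all genes and below 0 in 37% and 27.8%. No member was past 1.5-fold against both controls in the same direction, while 6.6% of all genes were lower than both and 0.518% higher than both. The 2 comparisons share the ectopic library. A gene that passed the filter only through the library where it was high had to differ, so these counts are no support for a difference in the set. In the lists above that held for Ormdl1 over the dOLC control, and for St3gal5 and Asah2 over the vOLC control. With TMM factors the median of all genes moved to 0.14 for the dOLC control and to 0.13 for the vOLC control, and members past the fold over the dOLC control became 0 lower and 5 higher, while 6.59% and 3.72% of all genes were.

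Judged by counting intervals alone, 5 of 24 members lay below both controls in MOL5/6 (Cers4, Ugt8a, Sgpl1, Cerk and Galc), while 20.7% of all 5211 genes did, and 3 of 24 lay above both (Sptssa, Cers2 and Degs1), while 13.2% of all genes did. Both shares of members were near those of all genes, and genes of ceramide synthesis were in both lists. Transcript length moved with the ratio in these libraries: over all genes Spearman's rho between the longest annotated transcript and the ratio was -0.53 against control dOLCs and -0.50 against control vOLCs in MOL5/6, and -0.097 between the controls, over genes that are not independent replicates. Its part in the results was not tested, and values after subtraction of the median ratio of genes of similar length are given below for the members in these lists.

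**Figure D3:**
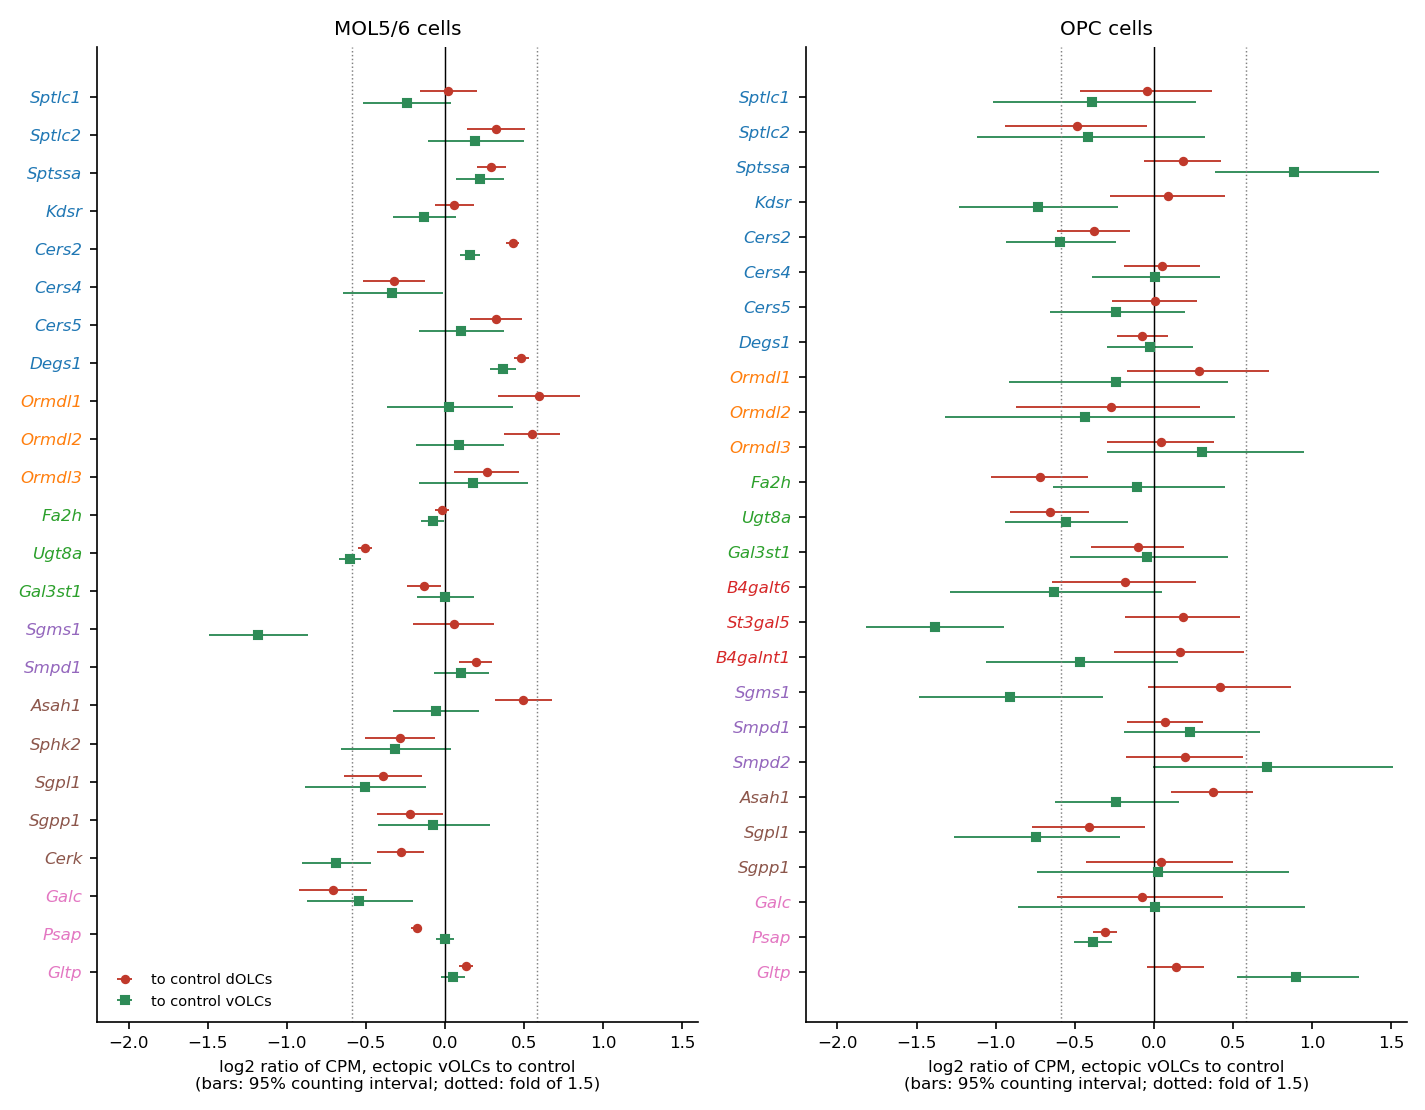
Log2 ratio of CPM of ectopic vOLCs to control dOLCs (circles) and control vOLCs (squares) in MOL5/6 and OPCs, for members past the filter in both comparisons. Bars are 95% counting intervals and dotted lines mark a fold of 1.5. Ugt8a lies left of 0 in both panels against both controls, and Cers2 lies right of 0 in MOL5/6 and left of it in OPCs.

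Ugt8a was at a lower level in ectopic vOLCs than in both controls, in MOL5/6 and in OPCs. In MOL5/6 control dOLCs had 771 CPM (11437 UMIs), control vOLCs 823 CPM (2404 UMIs) and ectopic vOLCs 543 CPM (5738 UMIs). The ectopic level was the lowest of the 3 and the 2 control levels lay near each other. On the log2 scale the ectopic library stood at -0.51 (-0.55 to -0.46) over the dOLC control and at -0.60 (-0.67 to -0.53) over the vOLC control. Ratios given as a pair below keep that order. The control libraries differed by 0.095 (0.031 to 0.16). In MOL2 the ratios were -0.41 and -0.59, and in MOL1, a smaller mature class, -0.57 and -0.63. In OPCs they were -0.66 (-0.91 to -0.41) and -0.56 (-0.94 to -0.17).

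Over 7 clusters held apart (OPC, MOL1, MOL2a and MOL5/6a to MOL5/6d), the Ugt8a ratio was below 0 in 7 of 7 against each control, with the counting interval below 0 in 6 against control dOLCs and in 5 against control vOLCs. The clusters share 1 library per condition and are not replicates. Other members kept 1 direction in 7 of 7 against a single control. Galc and Sphk2 were below control dOLCs, Smpd1 was above them, and St3gal5 was below control vOLCs. Within the MOL5/6 subclusters the differences were smaller than over MOL5/6 as a whole. From MOL5/6a to MOL5/6d they were -0.30, -0.049, -0.24 and -0.41 over the dOLC control, and -0.28, -0.22, -0.20 and -0.35 over the vOLC control. With the 4 subclusters weighted equally they came to -0.23 and -0.25. The level itself differed between subclusters, with MOL5/6d, which held 837 ectopic cells, at 602, 580 and 454 CPM, and MOL5/6b, which held 1947 control dOLCs, at 849, 956 and 821 CPM. With genes of like length taken off, the MOL5/6 ratios were -0.40 and -0.49, and with TMM factors -0.34 and -0.45. Ugt8a is also in the study's own list of genes lower in ectopic cells, which was chosen on these same cells, so its direction here is not independent evidence.

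For the other galactolipid synthesis genes the differences over MOL5/6 as a whole were smaller. Fa2h in MOL5/6 was at 643, 669 and 634 CPM, with ratios of -0.020 (-0.065 to 0.026) and -0.078 (-0.15 to -0.0041), which turned to 0.15 and 0.070 with TMM factors. The 3 libraries were close together. Gal3st1 was at 124, 113 and 113 CPM, with ratios of -0.13 (-0.24 to -0.026), which turned to 0.038 with TMM factors, and 0.0013 (-0.18 to 0.18). With the subclusters weighted equally the ratios were -0.29 and -0.19 for Gal3st1, near those of Ugt8a, and -0.098 and -0.18 for Fa2h. Over the 7 clusters, Gal3st1 was below 0 in 6 and Fa2h in 5 against each control, with the counting interval below 0 in 2 each time for either gene. It was above 0 in 1 cluster for Fa2h, MOL2a, with ratios of 0.22 and 0.15, and in 0 for Gal3st1. The lowest Gal3st1 ratios among the MOL5/6 subclusters were those of MOL5/6b, -0.94 and -0.87, where the ectopic level rests on 9 UMIs. For Fa2h it was MOL5/6c, at 644, 840 and 483 CPM and with ratios of -0.41 and -0.80, from 63 ectopic cells.

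**Figure D4:**
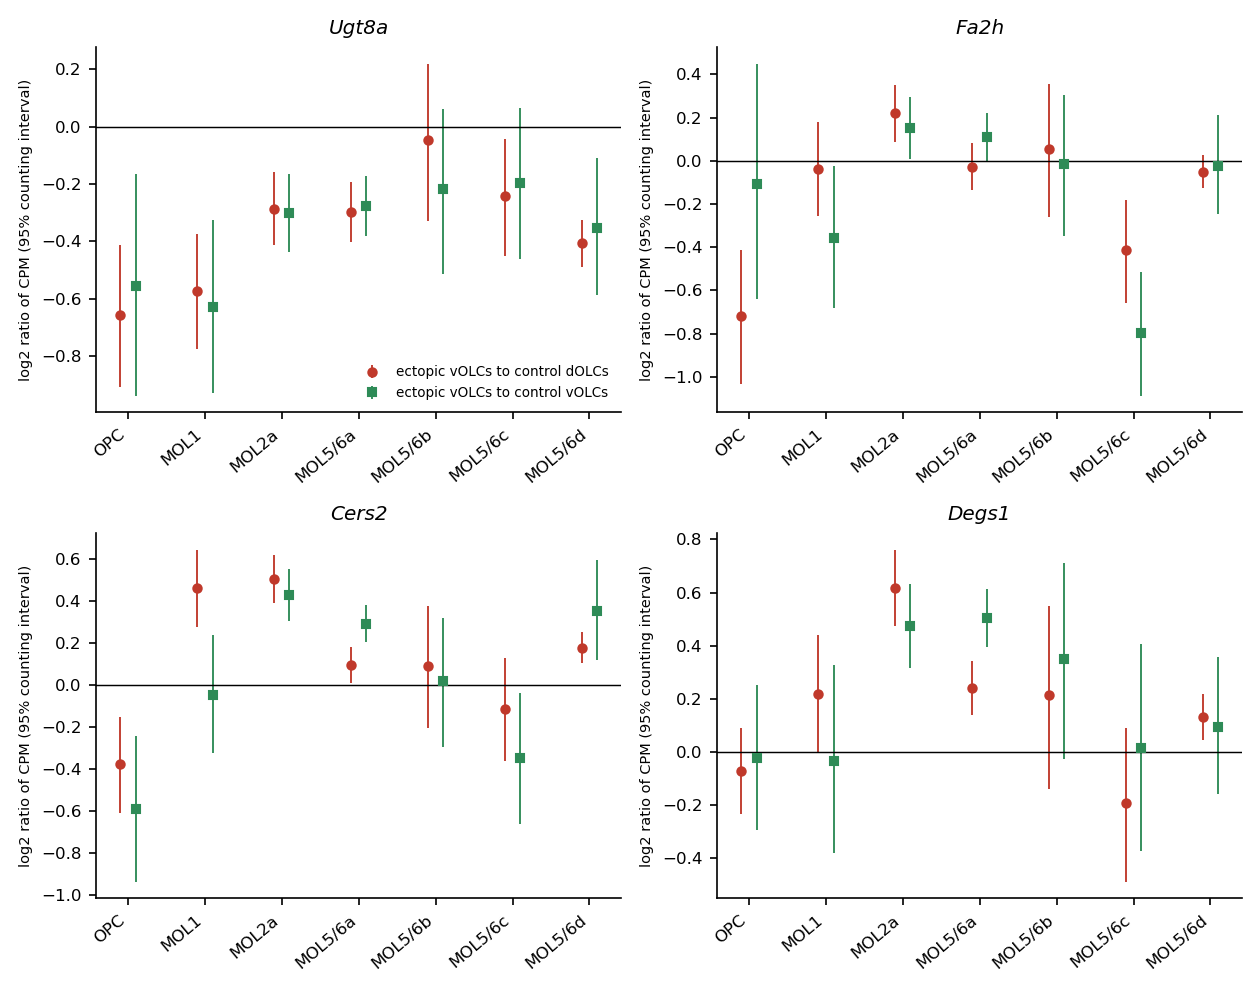
Log2 ratio of CPM of ectopic vOLCs to control dOLCs (circles) and to control vOLCs (squares) in 7 clusters for Ugt8a, Fa2h, Cers2 and Degs1, with 95% counting intervals and a separate axis for each gene. All points of Ugt8a are below 0, those of Fa2h scatter around 0, and those of Cers2 and Degs1 are mostly above 0 in mature clusters.

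Of the 8 genes of de novo ceramide synthesis past the filter in MOL5/6, 7 had a ratio above 0 over the dOLC control and 5 over the vOLC control, all under 1.5-fold. Of all genes past the filter 46.6% and 47.7% were above 0. With the subclusters weighted equally 4 of the 8 were above 0 over each control. Degs1, Cers2 and Sptssa had counting intervals above 0 over both controls, and Cers4 had both below 0. Degs1 was at 467, 505 and 652 CPM, with ratios of 0.48 (0.43 to 0.53) and 0.37 (0.29 to 0.45). Cers2 was at 667, 804 and 898 CPM, with ratios of 0.43 (0.39 to 0.47) and 0.16 (0.093 to 0.22). Sptssa was at 142, 150 and 174 CPM, with ratios of 0.29 (0.20 to 0.38) and 0.22 (0.070 to 0.37). The ectopic library was the highest of the 3 for each of these genes. Cers4 was at 39.1, 39.4 and 31.3 CPM, with ratios of -0.32 (-0.52 to -0.12) and -0.33 (-0.64 to -0.012), lowest in the ectopic library. With the subclusters weighted equally, the ratios were 0.14 and 0.29 for Degs1, 0.080 and 0.12 for Cers2, -0.0090 and -0.047 for Sptssa, which turned direction, and -0.47 and -0.35 for Cers4. Over the dOLC control Sptlc1 and Kdsr turned as well, from 0.021 and 0.060 to -0.050 and -0.053. MOL5/6a, which held 900 ectopic cells, had the highest Cers2 levels of the 4 subclusters in all libraries, at 1100, 960 and 1175 CPM, and MOL5/6c among the lowest, at 499, 588 and 461 CPM. With genes of like length taken off, the ratios were 0.36 and 0.27 for Degs1, 0.33 and 0.073 for Cers2 and 0.18 and 0.068 for Sptssa, and those of Cers4 turned to 0.26 and 0.14. Kdsr was at 83.4, 95.2 and 86.9 CPM, and both of its intervals included 0.

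Over MOL5/6 as a whole the ORMDL genes were lowest in control dOLCs. Ormdl1 was at 15.9, 23.6 and 24.0 CPM, Ormdl2 at 34.4, 47.3 and 50.3 CPM and Ormdl3 at 28.6, 30.5 and 34.4 CPM. The ectopic and control vOLC libraries lay close together for Ormdl1 and Ormdl2, with ratios of 0.024 (-0.37 to 0.43) and 0.090 (-0.18 to 0.37), while the ectopic ratios to control dOLCs were 0.60 (0.33 to 0.86) and 0.55 (0.37 to 0.73). Ormdl1 was detected in 6.04% of control dOLCs and 12.8% of ectopic vOLCs. It passed that filter only through the ectopic library, so its fold is a description and no support for a difference. With the subclusters weighted equally Ormdl1 was under the fold. Ormdl1 turned direction by subcluster, with ratios to control dOLCs of 0.44, -0.18, -0.51 and 0.46 from MOL5/6a to MOL5/6d, where the ectopic values of MOL5/6b and MOL5/6c rest on 2 and 3 UMIs. In the 7 clusters held apart, ectopic vOLCs were below control dOLCs in 2 for Ormdl1, 3 for Ormdl2 and 2 for Ormdl3. The ectopic counting interval was above 0 in 2 clusters and below 0 in 0 for each gene. Control vOLCs were below control dOLCs in 1, 1 and 3 clusters. Exons of Ormdl1 overlap those of Gm28778 on the same strand, so reads of the pair may be split.

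Among breakdown and transfer genes in MOL5/6, Galc was the member past the filter that lay farthest below control dOLCs. It was at 40.3, 36.0 and 24.7 CPM (598, 105 and 261 UMIs), with ratios of -0.71 (-0.92 to -0.49) and -0.54 (-0.87 to -0.20). The ectopic level was the lowest of the 3. With TMM factors the ratios were -0.54 and -0.40, under the fold. With the subclusters weighted equally they were -0.76 and -0.72, and as a mean over cells -0.78 and -0.65, past 1.5-fold below both controls either way. From MOL5/6a to MOL5/6d the ratios were -0.60, -1.53, -0.90 and -0.0066 over the dOLC control, and -0.078, -1.77, -1.05 and 0.48 over the vOLC control, where the ectopic values rest on 93, 2, 9 and 157 UMIs. With genes of like length taken off, the ratios were -0.48 and -0.34. Cerk was at 66.2, 87.7 and 54.5 CPM and Sgpl1 at 25.9, 28.1 and 19.8 CPM, both lowest in ectopic vOLCs. The Cerk ratios were -0.28 and -0.69, and -0.022 and -0.45 with genes of like length taken off. Those of Sgpl1 were -0.39 and -0.51, and -0.19 and -0.32 so treated. In MOL5/6a, which held the most ectopic cells, Sgpl1 was above both controls, at 0.28 and 0.10, and with the subclusters weighted equally the ratios were -0.11 and -0.58. Asah1 was at 34.3, 50.3 and 48.3 CPM, so that both vOLC libraries were above control dOLCs. Psap was at 1178, 1040 and 1041 CPM and Gltp at 574, 607 and 629 CPM, with differences under 1.5-fold. Gltp was highest in ectopic vOLCs only over MOL5/6 as a whole, with ratios of 0.13 and 0.054. It was below both controls in each of the 4 subclusters, and with equal weights the ratios turned to -0.14 and -0.18. So weighted, those of Psap were -0.053 and 0.28. Smpd1 was at 111, 118 and 127 CPM, Sgpp1 at 33.8, 30.5 and 28.9 CPM, and Arsa at 21.8, 24.0 and 17.5 CPM. Smpd2 (21.02, 17.5 and 16.8 CPM), Smpd3 (6.67, 6.85 and 6.62 CPM) and B4galnt1 (6.00, 7.19 and 6.15 CPM) were under the filter in MOL5/6 in all 3 comparisons.

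The controls themselves differed in 2 members in both cell types. Of 27 members past the filter in MOL5/6, 2 were higher in control vOLCs than in control dOLCs (St3gal5 and Sgms1), while 2.56% of all 5195 genes were, and 0 were lower, while 0.731% of all genes were. The median over members was 0.12 and 23 of 27 were above 0, while the median of all genes was -0.031 and 44.2% of them were above 0. With the subclusters weighted equally the median over members was 0.038. In MOL5/6 St3gal5 and Sgms1 passed the filter for this comparison only through control vOLCs, where they were high, so that count is a description and no support for a difference. In OPCs both also passed it in control dOLCs. St3gal5, the GM3 synthase, lies on chromosome 6 from 72097592 to 72154571 (plus strand), and Sgms1, a sphingomyelin synthase of the Golgi, on chromosome 19 from 32122727 to 32389714 (minus strand). In MOL5/6, St3gal5 was at 20.9, 49.7 and 17.1 CPM (310, 145 and 181 UMIs) and Sgms1 at 20.5, 48.3 and 21.3 CPM (304, 141 and 225 UMIs). Control vOLCs were the highest for both genes, and over MOL5/6 as a whole the other two libraries lay close together. With the subclusters weighted equally the ectopic Sgms1 level was no longer close to that of control dOLCs, with a ratio of 0.71 in place of 0.055. The ratio of control vOLCs to control dOLCs was 1.25 (0.95 to 1.54) for St3gal5 and 1.24 (0.94 to 1.53) for Sgms1. Both were also past 1.5-fold over ectopic vOLCs, as were 1.99% of all genes over both other libraries.

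Control vOLCs were the highest in OPCs as well. St3gal5 was at 71.6, 213 and 81.5 CPM and Sgms1 at 42.3, 106 and 56.6 CPM, with ratios of control vOLCs to control dOLCs of 1.57 (1.18 to 1.95) and 1.33 (0.78 to 1.86). By cluster, St3gal5 was above control dOLCs in control vOLCs in 7 of 7 clusters (the interval in 6), and Sgms1 in 6 of 7 (the interval in 6). MOL1 was the exception for Sgms1, with 3 UMIs in control vOLCs. Ectopic vOLCs were above control dOLCs in Sgms1 by counting interval in 2 clusters, MOL5/6a (1.51) and MOL5/6b (1.56), the latter on 8 ectopic UMIs. Over all genes, 28 were past 1.5-fold in control vOLCs over both other libraries in MOL5/6 and in OPCs alike, and these 2 members were among them. The control vOLC library was the smallest, with 925 kept cells, and its values rest on that single library. An exon of Sgms1 overlaps an antisense gene, 2700046G09Rik, and whether counting used strand is not given in the sources used here. Overlaps of that kind exist for 14 of the 41 members.

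**Figure D5:**
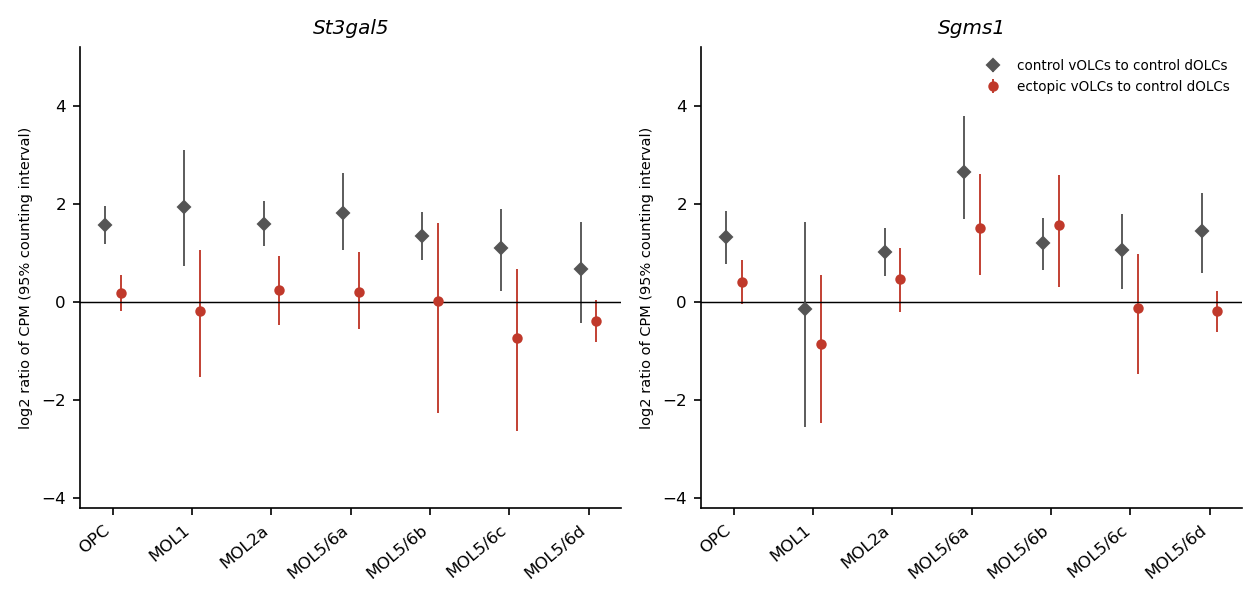
Log2 ratio of CPM to control dOLCs of control vOLCs (diamonds) and ectopic vOLCs (circles) in 7 clusters for St3gal5 and Sgms1, with 95% counting intervals. The diamonds of St3gal5 are all above 0, while its circles lie around 0. The diamonds of Sgms1 are above 0 in 6 of 7 clusters.

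In OPCs, 2 of 27 members past the filter stood 1.5-fold or more below control dOLCs in the ectopic library (Fa2h and Ugt8a), while 5.79% of all 6110 genes were, and 0 were higher, while 5.34% of all genes were. Against control vOLCs, 6 of 26 were lower (Kdsr, Cers2, B4galt6, St3gal5, Sgms1 and Sgpl1), while 9.77% of all 5721 genes were, and 3 were higher (Sptssa, Smpd2 and Gltp), while 18% of all genes were. The intervals of B4galt6 and Smpd2 included 0. None was past the fold against both controls, while 1.69% of all genes were lower than both and 2.86% higher than both. By counting intervals 4 members lay below both controls (Cers2, Ugt8a, Sgpl1 and Psap), while 3.49% of all 5667 genes did, and 0 lay above both, while 8.68% of all genes did. Between the controls, 6 of 28 members were higher in control vOLCs (Kdsr, St3gal5, B4galnt1, Sgms1, Asah1 and Acer3), while 10.8% of all 5863 genes were, and 3 were lower (Sptssa, Fa2h and Gltp), while 12.1% of all genes were. Of these, Kdsr, St3gal5 and Sgms1 were also past the fold over ectopic vOLCs, as were 5.11% of all genes over both other libraries. The control vOLC OPCs were 121 cells, so single genes rest on few UMIs: 38 for Sptssa, 53 for Kdsr and 67 for Gltp.

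The summed markers of mature oligodendrocytes differed between the OPCs of the 3 libraries, in the order of the Fa2h levels there. The 11 markers together made up 1.36%, 0.644% and 0.61% of OPC UMIs in the 3 libraries, with none at 0 in any library. Fa2h was at 155, 101 and 93.99 CPM (406, 40 and 113 UMIs), with an ectopic ratio of -0.72 (-1.03 to -0.41) to control dOLCs and -0.11 (-0.64 to 0.45) to control vOLCs. Without the cells of the highest doublet scores the former was -0.38. Ugt8a was at 231, 215 and 146 CPM (606, 85 and 176 UMIs), and its ratio to control vOLCs, where the marker shares were close, was -0.56. Without those cells its ratios were -0.41 and -0.56. Among the other myelin lipid genes, Cers2 was highest in control vOLCs, Gltp in ectopic vOLCs, and the Gal3st1 levels lay close together. The part of the markers in the Fa2h and Ugt8a results was not tested.

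Cers2 had opposite directions in the 2 cell types, above both controls in MOL5/6 and below both in OPCs, where it was at 229, 266 and 176 CPM with ratios of -0.38 (-0.61 to -0.15) and -0.59 (-0.94 to -0.24). Degs1 in OPCs was at 395, 383 and 376 CPM, with both intervals including 0. Gltp was at 288, 170 and 317 CPM, low in control vOLCs only, with a ratio of control vOLCs to control dOLCs of -0.76 (-1.14 to -0.40). Psap was at 1945, 2047 and 1569 CPM, with ectopic ratios of -0.31 (-0.39 to -0.23) and -0.38 (-0.50 to -0.26). Sgpl1 was at 98.3, 124 and 74.0 CPM, with ratios of -0.41 (-0.77 to -0.056) and -0.75 (-1.26 to -0.21). Of the other genes with most UMIs in their roles, Gal3st1 (124, 119 and 116 CPM), Smpd1 (167, 149 and 176 CPM), Galc (40.4, 38.0 and 38.3 CPM), Sgpp1 (47.6, 48.1 and 49.1 CPM) and Ormdl3 (88.0, 73.5 and 90.7 CPM) had intervals that included 0 against both controls. Cerk, Arsa, Smpd3 and Ugcg did not pass the filter for ectopic vOLCs in OPCs.

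Of 46 other genes of the pathway, 16 passed the filter in MOL5/6 for ectopic vOLCs against control dOLCs, where 1 was lower by the fold, while 11.5% of all genes were, and 0 were higher, while 1.13% of all genes were, with a median of 0.10. The lowest ratios were those of Spns2, the exporter of sphingosine phosphate, at 49.7, 46.6 and 24.4 CPM (-1.03, -1.24 to -0.82), Plpp3, a lipid phosphate phosphatase, at 98.4, 78.1 and 82.3 CPM (-0.26, -0.38 to -0.14), and Hacd3, a dehydratase of very long chain elongation, at 33.2, 30.8 and 29.9 CPM (-0.15, -0.36 to 0.057). The highest were those of Aldh3a2, the fatty aldehyde dehydrogenase, at 28.5, 36.0 and 36.2 CPM (0.35, 0.14 to 0.55), Tecr, a reductase of chain elongation, at 830, 879 and 1002 CPM (0.27, 0.23 to 0.31), and S1pr5, a sphingosine phosphate receptor of oligodendrocytes, at 262, 288 and 310 CPM (0.24, 0.17 to 0.31). Only Spns2 stood past 1.5-fold. Against control vOLCs 1 of 16 was lower and 0 were higher (12.4% and 1.46% of all genes), and between the controls 0 of 16 passed the fold either way (0.731% lower and 2.56% higher of all genes). In OPCs, 4 of 25 were lower and 2 higher against control dOLCs (5.79% and 5.34% of all genes), 3 of 22 lower and 0 higher against control vOLCs (9.77% and 18%), and 2 of 24 lower and 2 higher between the controls (12.1% and 10.8%).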

How the data were processed

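Single cells of 3 adult libraries (10x Chromium 3′ v2, lane 1) were used, and 4 P0 single-nucleus samples, which the labels put in none of these groups, were not used here. The deposited values were counts: whole UMIs per gene and cell, not normalised, which the authors made with Cell Ranger (2.1.1 in the submitters' processing notes, another version in the study's methods) on mm10 and annotated by clustering in Seurat. Kept cells were those the authors retained in the deposited annotation, for which the study's methods give more than 200 and fewer than 3000 genes and at most 15% mitochondrial counts, and cell types were taken from that annotation. The study set aside another cohort for batch effects, and no second batch remains to compare with.

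UMIs were summed per library and cell type, scaled to CPM and compared as log2 ratios with exact conditional binomial intervals (Python 3.11.15, scipy 1.17.1), a calculation tested on simulated counts. Intervals and the limit of 3 UMIs for a count of 0 cover counting error only. No cell was removed as a doublet in the main values: Scrublet, run through scanpy 1.11.5, called 16 of 9291 kept cells, under the share at which such a caller can be trusted, so the 6% of barcodes with the highest scores were left out as an alternative. Other alternatives were TMM factors (edgeR 4.0.16), median of ratios size factors, no filter, the mean over cells, cells thinned to 1000 UMIs, each MOL5/6 subcluster and their equal weighting, genes of like length taken off, at most 10% mitochondrial counts, and folds of 1.25 and 2. Named genes were all members by count, with values in every library for the 3 galactolipid synthesis genes and the 4 genes with the most UMIs in each role, and the 3 highest and lowest of the other pathway genes. The members, the lists and the tests were chosen with earlier results of these data known. Positions are from GENCODE M21, and upstream sequences from RefSeq.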

Additional observations from a re-analysis of the deposited data

Results flagged for a closer look

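A member is given here where its counting interval lay on opposite sides of 0 in MOL5/6 and in OPCs under the same contrast, and for none of them was the difference between the cell types tested. Sptlc2, a large subunit of serine palmitoyltransferase, stood at 0.33 in MOL5/6 and -0.48 in OPCs for ectopic vOLCs over control dOLCs, on the log2 scale. Cers2 had ratios of 0.43 and -0.38 in the same contrast, and 0.16 and -0.59 for ectopic vOLCs to control vOLCs. Gltp had ratios of control vOLCs to control dOLCs of 0.081 in MOL5/6 and -0.76 in OPCs. The Sptlc2 value in OPCs rests on 174 and 57 UMIs, and the Gltp value on 755 and 67.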

How the results depend on the processing

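With 1 library per condition, counting error was the only error known, and depth limited OPC values of control vOLCs (121 cells) and subcluster values of ectopic vOLCs in MOL5/6b (42 cells) and MOL5/6c (63 cells). No paired analysis was possible because there was a single library for every condition, and no library could be left out. Of the alternatives for summary values, 189 stayed within 1.5 times or within the interval of the value in the report and 80 did not, and for single members 1167 stayed within it, 329 moved and 5 that were past the fold turned direction. The cause was not tested in any case, beyond the wider or narrower choice that another fold or filter makes by its own construction. A percentage in parentheses is the share of all genes past the same limit under that setting, to be read against the count of members it follows.

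In MOL5/6, the 1 member lower against control dOLCs became 0 with TMM factors (6.59%), with median of ratios factors (6.09%), in MOL5/6d only (2.4%), with genes of similar length taken off (similar length below, 3.28%) and at a fold of 2 (1.95%). It became 2 in thinned cells (14.3%) and in MOL5/6b only (24.4%), 3 at a fold of 1.25 (23.3%), and 5 with no filter (24.5%). The 1 higher became 5 with TMM factors (3.72%) and with median of ratios factors (4.33%), 4 with the mean over cells (1.44%), 3 in thinned cells (2.55%), and 7 at a fold of 1.25 (7.95%). It became 2 in MOL5/6b only (7.63%), with similar length (2.57%) and with no filter (11.7%) and 0 without the highest Scrublet scores (1.15%), with the lower mitochondrial limit (0.997%), in MOL5/6c only (4.35%), in MOL5/6d only (1.02%) and at a fold of 2 (0.192%). With equal subcluster weights (0.786%) and in MOL5/6a only (1.71%) the count stayed at 1, but the member was Sgms1 in place of Ormdl1. The 5 lower against control vOLCs became 3 with TMM factors (7.55%), with median of ratios factors (7.3%) and in MOL5/6a only (12.2%) and 8 in thinned cells (16.8%) and in MOL5/6c only (15%). They became 2 with similar length (5.39%) and at a fold of 2 (2.71%), 11 with no filter (34%), and 9 at a fold of 1.25 (25.3%). The 0 higher became 1 in thinned cells (6.44%), in MOL5/6b only (8.93%), with similar length (2.58%) and at a fold of 1.25 (10.6%), 3 in MOL5/6c only (11.8%), and 2 in MOL5/6d only (12.2%). The 0 lower than both controls became 1 with the mean over cells (8.33%), in thinned cells (8.5%), with equal subcluster weights (1.92%) and in MOL5/6c only (7.16%), 2 in MOL5/6b only (20.6%), 4 with no filter (18.3%), and 3 at a fold of 1.25 (16.3%). The 0 higher than both became 1 in MOL5/6b only (5.26%), with similar length (1.09%) and at a fold of 1.25 (3.05%). Between the controls the median of 0.12 became 0.038 with equal weights and -0.016 in MOL5/6a only. There the 0 lower became 1 in MOL5/6a only (2.77%) and in MOL5/6c only (9.89%) and 3 in MOL5/6d only (12.9%). The 2 higher became 5 in thinned cells (4.91%), in MOL5/6a only (7.05%) and in MOL5/6d only (9.07%), 4 in MOL5/6c only (6.64%), 6 with no filter (26.9%), and 7 at a fold of 1.25 (8.49%).

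In OPCs, the median against control vOLCs of -0.24 became 0.12 in thinned cells. The 2 lower against control dOLCs became 0 with the mean over cells (5.68%), without the highest Scrublet scores (5.04%) and at a fold of 2 (1.91%) and 5 at a fold of 1.25 (13.5%). The 0 higher became 1 in thinned cells (9.9%), 3 with no filter (20.4%), and 2 at a fold of 1.25 (20.7%). The 6 lower against control vOLCs became 11 with no filter (31.1%), 12 at a fold of 1.25 (23.9%), and 1 at a fold of 2 (1.84%), and the 3 higher became 0 at a fold of 2 (5.3%). The 0 lower than both controls became 2 in thinned cells (4.66%) and 4 at a fold of 1.25 (6.88%), and the 0 higher than both became 1 in thinned cells (5.19%). Between the controls the 3 lower became 1 in thinned cells (18.8%), 5 with no filter (12.8%), and 0 at a fold of 2 (2.8%). The 6 higher became 13 with no filter (33.3%), 10 at a fold of 1.25 (26.1%), and 2 at a fold of 2 (2.39%). The 10 members lower in MOL5/6 than in OPCs became 3 with TMM factors (9.48%).

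Members past the fold turned direction in 5 cases. Ormdl1 against control dOLCs in MOL5/6 became -0.18 in MOL5/6b only and -0.51 in MOL5/6c only. Sgms1 against control vOLCs in MOL5/6 became 0.36 in MOL5/6b only. In OPCs against control vOLCs, thinning turned Kdsr to 0.097 and B4galt6 to 0.40. Of members under the fold in MOL5/6, those that turned under 3 settings are named here. With equal subcluster weights those against control dOLCs were Gltp (-0.14), Kdsr (-0.053), Sptlc1 (-0.050) and Sptssa (-0.0090). Against control vOLCs they were Asah1 (0.11), Gal3st1 (-0.19), Gltp (-0.18), Ormdl1 (-0.20), Ormdl2 (-0.17) and Sptssa (-0.047). With TMM factors Fa2h (0.15) and Gal3st1 (0.038) turned against control dOLCs, and Asah1 (0.088), Fa2h (0.070), Kdsr (0.016) and Sgpp1 (0.073) against control vOLCs. With genes of similar length taken off Cers4 (0.26) and Sptlc1 (-0.076) turned against control dOLCs. Against control vOLCs Cers4 (0.14), Gal3st1 (-0.11), Gltp (-0.065), Kdsr (0.18), Ormdl1 (-0.010), Ormdl2 (-0.018) and Psap (-0.054) did.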
